A study of Macaca fascicularis with 12 samples.

Results

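This report describes 38 genes that build the extracellular matrix of the artery wall, apart from its collagens, in the iliac artery of cynomolgus monkeys (Macaca fascicularis). Of the 38, 19 encode proteins of the elastic fibre, 11 encode laminins and other basement membrane proteins, and 8 encode fibronectin and matricellular proteins. A gene was represented by the brightest probe that the platform annotation ties to its symbol alone, and 33 of the 38 had such a probe, out of 18160 genes measured this way. These were 16 elastic fibre, 9 basement membrane and 8 matricellular genes. FBLN1 and MFAP2 lay only on probes annotated to several genes, and EFEMP1, LAMA3 and LAMC1 were matched to no probe, so these 5 were not analysed here.

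The samples were iliac artery biopsies of 12 female monkeys aged over 20 years, 1 artery and 1 array per animal. All of them had eaten a high fat diet for 8 years and had been without ovaries for 4 years, and none had a further treatment, so that no artery stands for a lean or an ovary-intact animal. The submitters measured plaque area and formed 3 groups from it: small (n = 4; 0 to 0.113 mm2, with 2 animals recorded as free of plaque and set at 0), medium (n = 5; 0.3 to 0.542 mm2) or large (n = 3; 0.61 to 1.003 mm2). RNA came from homogenised artery tissue and not from plaque alone, so fewer cells of a type cannot be told apart from less RNA per cell.

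Elastic fibres give a large artery its recoil. They consist of a core of cross-linked elastin inside a sheath of fibrillin microfibrils, to which fibulins, latent TGF-beta binding proteins and other glycoproteins attach, and lysyl oxidases make the cross-links. Basement membranes surround each smooth muscle cell and underlie the endothelium; they are networks of laminin, nidogen, collagen IV and heparan sulfate proteoglycans. Matricellular proteins such as thrombospondins, tenascins, periostin and SPARC are secreted into the matrix and modulate how cells attach and respond rather than bearing load. In atherosclerosis, degradation of elastic fibres and remodelling of basement membrane by smooth muscle cells are textbook features of the diseased intima and media.

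Values are log2 probe intensities on a scale where the median probe of each array reads close to 0. The dimmest values were floored at -3.17. The array carries human probes, and levels of 1 probe are compared between animals, not as transcript amounts between genes. Sums over a list and the word brightest refer to probe signal. The 99th percentile of linear intensity was 127.4 to 195.8 on small arrays, 114.2 to 129.1 on medium arrays and 128.5 to 144.3 on large arrays, highest on small replicate 1. Small replicate 4 and medium replicate 5 carry animal numbers remote from the rest, and counts are also given without them. Tissue identity was checked on marker lists. MYH11, the smooth muscle myosin heavy chain, read 9.04 to 9.59 in small, 8.16 to 8.89 in medium and 8.77 to 8.94 in large arteries, and PECAM1 of endothelium read 4.39 to 4.92, 4.31 to 4.74 and 4.40 to 4.83 in the same order.

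No gene of the 33 passed the test in any comparison (limma, p adjusted over all 53877 tested probes, threshold 0.05). In large against small arteries 0 of 33 were called, where 1.15% of all probes were. In medium against small arteries 0 of 33 were called, where 3.14% of all probes were, and the lowest adjusted p was 0.0533. Large against medium arteries gave 0 of 33, with 0% of all probes called. The slope on plaque area over all 12 arteries gave 0 of 33 against 0.583% of probes, and the slope within the 8 medium and large arteries gave 0 of 33 against 0%.

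At an unadjusted p under 0.05, 8 of 33 (24.2%) passed in large against small arteries, where 20.7% of all genes taken at their brightest probe passed the same line. In medium against small arteries 11 of 33 did (33.3%, against 22.9% of all genes), 3 with a higher and 8 with a lower level. The 8 lower ones are 24.2% of the members, where 11% of all genes were lower, and the 3 higher ones 9.09%, where 12% were. In large against small arteries 3 were higher (9.09%, against 11.1% of all genes) and 5 lower (15.2%, against 9.55%). Large against medium arteries gave 3 of 33 (9.09%, against 5.03%).

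The intervals of the differences were wide. In large against small arteries the median half-width of the 95% interval was 0.93 log2 units, and 10 of 33 genes had an interval that lay wholly within 1 log2 unit of no difference. In medium against small arteries 13 of 33 did, with a median half-width of 0.81. For the other genes the interval reached beyond 1 log2 unit in at least 1 direction.

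Signs of the differences were not evenly split. Medium minus small was positive for 10 of 33 genes (30.3%) and negative for 23, where 46.8% of all genes were positive. The median was -0.29, against -0.03 over all genes at their brightest probe. Large minus small was positive for 12 (36.4%) and negative for 21, where 45% of all genes were positive, with a median of -0.19 against -0.05. Over 23 alternatives the positive count was 7 to 12 for medium minus small. It was 9 to 17 for large minus small, which reaches an almost even split. Large minus medium was positive for 26 of 33 (78.8%), where 47.2% of all genes were positive, with a median of 0.21 against -0.02. That last count was 22 without medium replicate 4, 22 without large replicate 1 and 21 without large replicate 2. These comparisons share arteries and are not independent of each other, and the shares over all genes were not matched for probe brightness. The medium group had the lowest of the 3 means for 19 of 33 genes, among them 11 of 16 elastic fibre genes, 5 of 9 basement membrane genes and 3 of 8 matricellular genes. Medium replicate 4 held the lowest value of the 12 arteries for 8 genes, the most of any artery, and small replicate 3 the highest value for 6. These counts of lowest and highest were not made over all genes. Whether they are particular to the 33 was not tested.

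**Figure D1:**
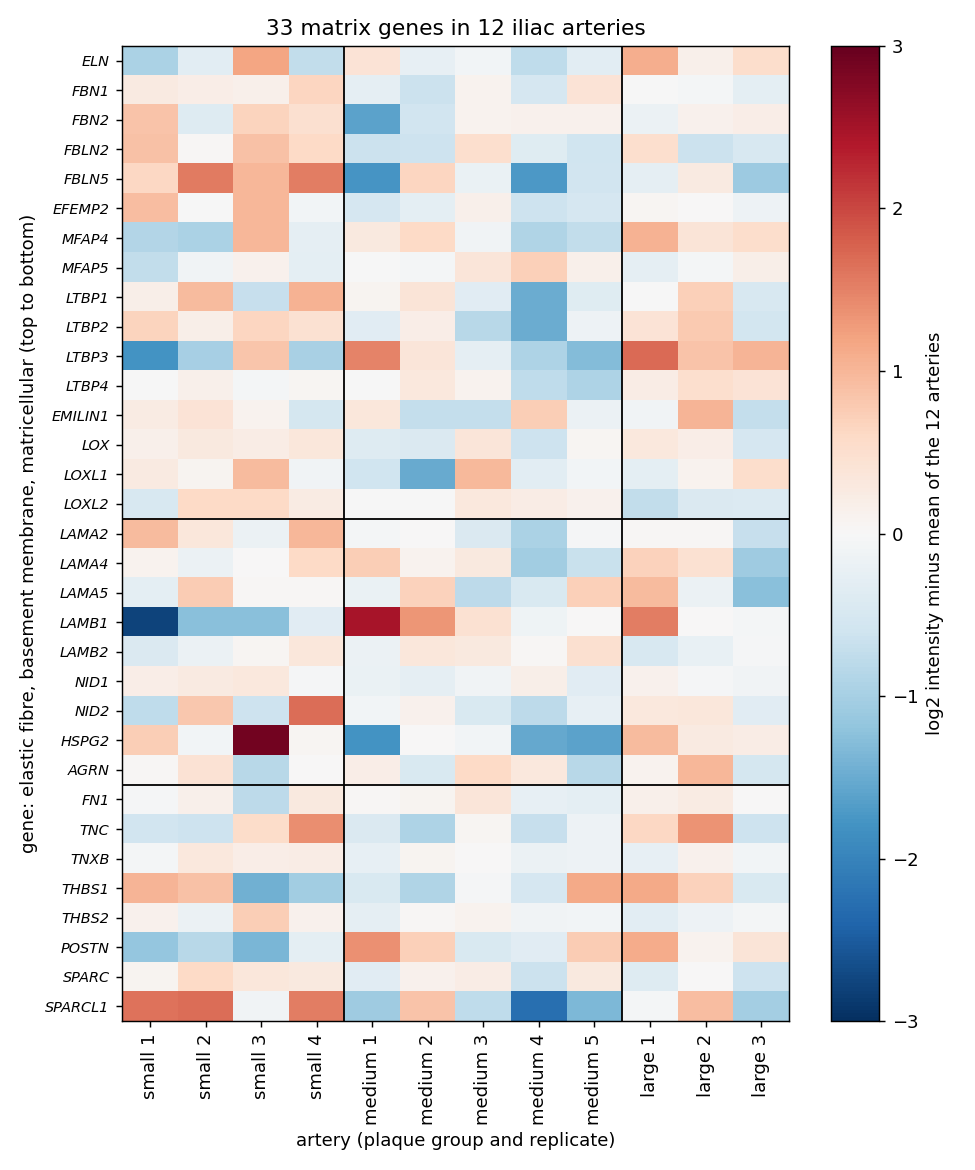
Log2 intensity of the 33 genes (rows, by role) in the 12 arteries (columns, by plaque group), each gene centred on its mean over the arteries. Red is above and blue below that mean; FBLN5 and SPARCL1 are mostly red in small arteries, LAMB1 and POSTN mostly blue there, and medium replicate 4 is the lowest artery for 8 genes.

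Of the 16 elastic fibre genes, 12 had a negative medium minus small difference, with a median of -0.48, and 14 a positive large minus medium one, with a median of 0.39. At an unadjusted p under 0.05, 1 of the 16 was higher (6.25%, against 12% of all genes) and 5 were lower (31.2%, against 11%) in medium against small arteries. Their summed linear intensity was 254 to 374 in small, 101 to 240 in medium and 167 to 299 in large arteries. Bright probes weigh most in such a sum, so it does not describe the 16 genes alike. LTBP1, the brightest, averaged 6.94 log2 units in small, 6.22 in medium and 6.64 in large arteries, and ELN 1.56, 1.56 and 2.36. In large minus small 6 of the 16 were positive and 10 negative. The gene with the smallest p among them was FBLN5, which encodes fibulin-5, a glycoprotein that ties elastin to microfibrils and to cell integrins and is needed for elastic fibre assembly in mice. It read 5.14, 6.06, 5.51 and 6.04 log2 units in the 4 small arteries, 2.73, 5.16, 4.31, 2.79 and 3.94 in the 5 medium arteries and 4.24, 4.77 and 3.42 in the 3 large arteries. All large arteries lay below all small ones, and 4 of the 5 medium arteries did, medium replicate 2 reaching just above the lowest small artery. Medium arteries differed from small by -1.90 ± 0.48 (SE; 95% interval -2.94 to -0.86; limma adjusted p 0.0533). Large arteries differed from small by -1.54 ± 0.55 (adjusted p 0.192). Neither passed. Without medium replicate 2, the medium difference was -2.25 and its adjusted p 0.0181. Over all 23 alternatives it was -2.25 to -1.64, with a limma adjusted p of up to 0.155.

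EFEMP2, fibulin-4, which brings lysyl oxidase to elastin, averaged 1.96 ± 0.31 in medium and 2.76 ± 0.58 in small arteries (SD, n = 5 and 4), and the difference of -0.80 ± 0.26 had an adjusted p of 0.121. FBLN2, fibulin-2, averaged 2.05 ± 0.49 in medium arteries and 2.99 ± 0.40 in small arteries, a difference of -0.94 ± 0.31 (adjusted p 0.127). In large arteries the differences from small were -0.48 ± 0.29 for EFEMP2 and -0.81 ± 0.35 for FBLN2.

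FBN1 encodes fibrillin-1, the main microfibril protein of adult arteries, which is mutated in Marfan syndrome. Its brighter probe read 3.84, 3.77, 3.73 and 4.21 in small arteries, 3.31, 2.92, 3.68, 3.06 and 3.98 in medium arteries and 3.56, 3.52 and 3.27 in large arteries. The large arteries all lay below the small ones, by a narrow margin, while medium arteries overlapped both. The differences were -0.44 ± 0.25 for large against small (adjusted p 0.428) and -0.50 ± 0.22 for medium against small (adjusted p 0.259). Its second, dimmer probe gave 0.60 ± 0.71 and 0.12 ± 0.63 for the same comparisons, with the opposite sign. FBN2, the fibrillin of developing tissue, had a dim probe with -0.35 ± 0.42 in large and -0.77 ± 0.37 in medium arteries against small.

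MFAP4, a fibrinogen-related protein that binds elastin and fibrillin, averaged 1.76 ± 0.90 in small arteries, 1.87 ± 0.65 in medium arteries and 2.70 ± 0.35 in large arteries (SD), and large minus small was 0.93 ± 0.48 (adjusted p 0.364). MFAP5, also called MAGP-2, averaged 1.37 in small, 1.86 in medium and 1.58 in large arteries, and medium minus small was 0.49 ± 0.22 (adjusted p 0.254). EMILIN1, an elastin interface protein, was near the floor, with 3 arrays at it.

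The 4 latent TGF-beta binding proteins anchor inactive TGF-beta to microfibrils or help build the fibre. LTBP2 averaged 5.46 ± 0.23 in small, 4.45 ± 0.66 in medium and 5.19 ± 0.68 in large arteries, and medium minus small was -1.01 ± 0.34 (adjusted p 0.143). A second probe of LTBP2 gave -0.996 ± 0.47. LTBP1 gave -0.72 ± 0.43 for medium against small and -0.30 ± 0.49 for large against small. LTBP3 read -1.61, -0.81, 1.01 and -0.79 in small arteries, 1.68, 0.54, -0.08, -0.75 and -1.12 in medium arteries and 1.87, 1.04 and 1.20 in large arteries. Its large arteries all lay above its small ones, and medium arteries spanned both. Large minus small was 1.92 ± 0.67 (adjusted p 0.187). LTBP4, on a dim probe, also had its 3 large arteries above its 4 small ones, with a difference of 0.34 ± 0.28 (adjusted p 0.592).

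ELN encodes tropoelastin, the soluble precursor of the elastic core. It read 0.82, 1.45, 2.94 and 1.03 in small arteries, 2.16, 1.52, 1.67, 1.01 and 1.45 in medium arteries and 2.85, 1.92 and 2.30 in large arteries. The highest value of all belonged to small replicate 3, so the groups overlapped. Large minus small was 0.80 ± 0.45 (95% interval -0.18 to 1.78; adjusted p 0.415), and medium minus small was 0.00 ± 0.40. The second ELN probe gave 0.23 ± 0.33 and -0.17 ± 0.29.

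Of the cross-linking enzymes, LOX, lysyl oxidase itself, read 2.37, 2.52, 2.44 and 2.55 in small arteries, 1.83, 1.79, 2.58, 1.59 and 2.27 in medium arteries and 2.53, 2.42 and 1.72 in large arteries. The small arteries had an SD of 0.08, the lowest of the 33 genes in any of the 3 groups. Of the medium arteries 4 lay below all small ones and 1 just above, and of the large arteries 1 lay below. Large minus small was -0.24 ± 0.26 and medium minus small -0.46 ± 0.23 (adjusted p 0.698 and 0.322). LOXL1, the paralogue that renews elastin in adult mice, gave -0.18 ± 0.46 and -0.60 ± 0.41. LOXL2, which cross-links collagen IV and other matrix proteins, read 2.24, 3.31, 3.29 and 2.95 in small arteries, 2.71, 2.70, 3.02, 2.92 and 2.84 in medium arteries and 1.96, 2.27 and 2.30 in large arteries. All 3 large arteries lay below all 5 medium ones, and small replicate 1 lay among the large. Large minus medium was -0.66 ± 0.24 (adjusted p 0.953) and large minus small -0.77 ± 0.25 (adjusted p 0.154). Without small replicate 1, large minus small was -1.01 with an adjusted p of 0.0216. Over all 23 alternatives it was -1.01 to -0.65, with a limma adjusted p of up to 0.430.

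**Figure D2:**
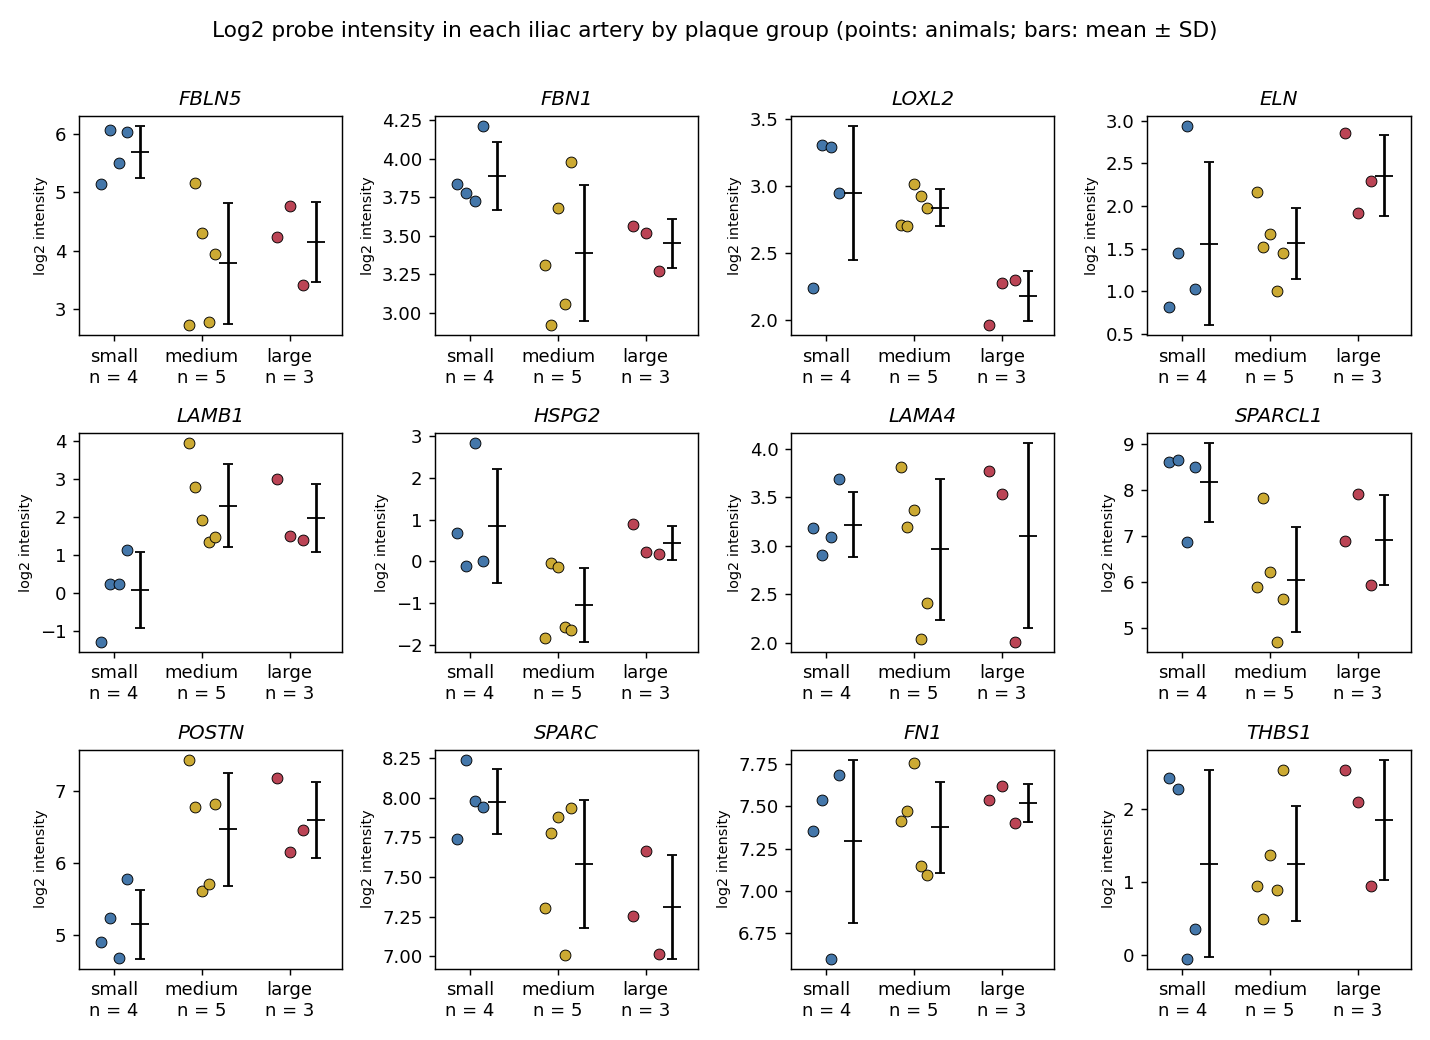
Log2 intensity of 12 genes in each artery, by plaque group (small n = 4, medium n = 5, large n = 3), with the mean and SD beside the points. The large arteries of FBLN5 (3.42 to 4.77) lie below all small ones (5.14 to 6.06), LAMB1 reads lowest in the 4 small arteries, and FN1 and LAMA4 overlap in every group.

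Of the 9 basement membrane genes, 3 had a positive and 6 a negative medium minus small difference, with a median of -0.25, and 2 were positive in large minus small. At an unadjusted p under 0.05 in medium against small arteries, 1 of the 9 was higher (11.1%, against 12% of all genes). Another 2 were lower (22.2%, against 11%). LAMB1, the beta-1 chain of several laminin heterotrimers, read -1.30, 0.22, 0.22 and 1.14 in small arteries, 3.95, 2.80, 1.93, 1.35 and 1.47 in medium arteries and 3.00, 1.49 and 1.40 in large arteries. All 8 medium and large arteries lay above all 4 small ones, the only one of the 33 genes for which this held in either direction, and 4.7% of all genes were higher without overlap in the same way. Medium minus small was 2.23 ± 0.60 (95% interval 0.92 to 3.53; adjusted p 0.0692) and large minus small 1.89 ± 0.68 (adjusted p 0.202), neither past the threshold.

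The other beta chain measured, LAMB2, found in laminins of vascular smooth muscle, differed between probes. Its brightest probe gave 0.25 ± 0.20 for medium against small, and the second gave -1.04 ± 0.30 (adjusted p 0.0819). The second probe also gave -0.94 ± 0.34 for large against small (adjusted p 0.198), and the third gave -0.06 ± 0.15.

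Among alpha chains, LAMA4, found in endothelial and smooth muscle basement membranes, read 3.18, 2.90, 3.09 and 3.69 in small arteries, 3.81, 3.19, 3.36, 2.04 and 2.41 in medium arteries and 3.77, 3.54 and 2.01 in large arteries. The groups overlapped throughout, with differences from small of -0.11 ± 0.47 in large and -0.25 ± 0.41 in medium arteries. LAMA2, the alpha chain of muscle laminin, averaged 1.83 ± 0.55 in small, 1.02 ± 0.41 in medium and 1.09 ± 0.41 in large arteries. Its differences were -0.74 ± 0.33 for large against small and -0.82 ± 0.29 for medium against small (adjusted p 0.301 and 0.161). LAMA5 lay on a pair of dim probes of opposite sign, at -0.30 and 0.65 for large against small.

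HSPG2 encodes perlecan, the main heparan sulfate proteoglycan of arterial basement membrane. It read 0.69, -0.12, 2.84 and 0.00 in small arteries, -1.84, -0.05, -0.14, -1.59 and -1.66 in medium arteries and 0.90, 0.23 and 0.18 in large arteries. All 3 large arteries lay above all 5 medium ones, while small replicate 3 was above every other artery. Medium minus small was -1.90 ± 0.59 (adjusted p 0.11), and large minus medium was 1.49 ± 0.64 (adjusted p 0.962). Without small replicate 3, HSPG2 medium minus small was -1.24. Agrin, AGRN, lay near the floor and gave 0.29 ± 0.43 for large against small. The linkers of laminin to collagen IV, nidogens NID1 and NID2, gave -0.33 ± 0.15 and -0.56 ± 0.44 for medium against small (adjusted p 0.275 and 0.547).

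Groups without overlap were counted over the 3 roles together. In large against small arteries 4 of 33 genes were higher, LTBP3, LTBP4, LAMB1 and POSTN, where 9.42% of all genes were. Another 3 of 33 were lower, FBN1, FBLN5 and SPARC, where 8.94% of all genes were. In medium against small arteries 1 of 33 was higher, LAMB1 (6.41% of all genes), and 0 were lower (4.73%). In large against medium arteries 1 of 33 was higher, HSPG2 (2.47%), and 1 lower, LOXL2 (3.26%).

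**Figure D3:**
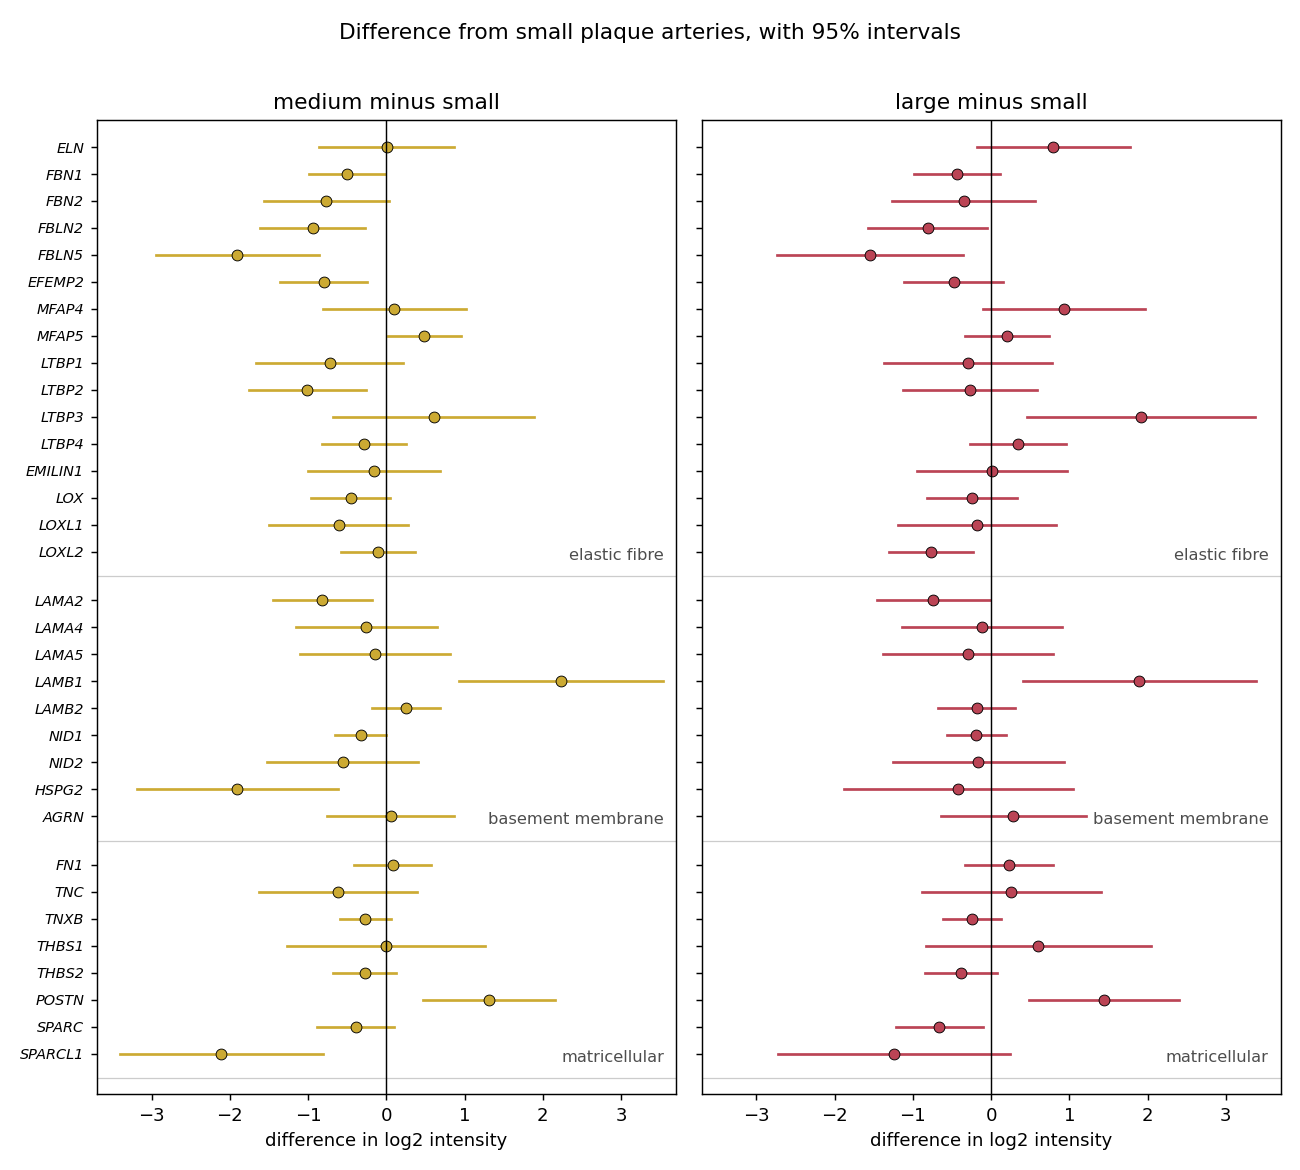
Difference in log2 intensity from small arteries for each of the 33 genes, medium minus small at left and large minus small at right, with the 95% interval of the limma fit. LAMB1 (2.23 and 1.89) and POSTN (1.31 and 1.44) lie to the right of 0 in both panels and FBLN5 (-1.90 and -1.54) to the left, but no gene passes the adjusted threshold.

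Of the 8 matricellular genes, 4 had a positive and 4 a negative large minus small difference, and 3 were positive in medium minus small, none past the threshold. At an unadjusted p under 0.05 in medium against small arteries, 1 of the 8 was higher (12.5%, against 12% of all genes). Another 1 was lower (12.5%, against 11%). POSTN encodes periostin, a fasciclin-domain protein laid down by activated fibroblasts and smooth muscle cells. It read 4.91, 5.24, 4.68 and 5.78 in small arteries, 7.43, 6.78, 5.61, 5.71 and 6.81 in medium arteries and 7.17, 6.15 and 6.45 in large arteries. The 3 large arteries lay above all 4 small ones, and in the medium group replicates 3 and 4 lay just under small replicate 4. Large minus small was 1.44 ± 0.44 (95% interval 0.48 to 2.40; adjusted p 0.134) and medium minus small 1.31 ± 0.39 (adjusted p 0.0931).

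SPARCL1, hevin, a secreted relative of SPARC, read 8.61, 8.66, 6.88 and 8.5 in small arteries, 5.90, 7.82, 6.22, 4.71 and 5.63 in medium arteries and 6.90, 7.90 and 5.95 in large arteries. Of the small arteries 3 lay above every other artery, and small replicate 3 lay among the plaque arteries. Medium minus small was -2.11 ± 0.60 (adjusted p 0.0825), and large minus small was -1.24 ± 0.68 (adjusted p 0.397). Without medium replicate 2 the first was -2.55 with an adjusted p of 0.0247. Over all 23 alternatives it was -2.55 to -1.77, with a limma adjusted p of up to 0.228.

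SPARC, osteonectin, a collagen-binding protein, read 7.74, 8.24, 7.98 and 7.94 in small arteries, 7.30, 7.78, 7.88, 7.01 and 7.94 in medium arteries and 7.26, 7.66 and 7.02 in large arteries. The large arteries all lay below the small ones, while 3 medium arteries lay within the small range. Large minus small was -0.66 ± 0.26 (adjusted p 0.232) and medium minus small -0.39 ± 0.23 (adjusted p 0.387). The second SPARC probe had larger differences of the same sign, -1.34 ± 0.49 and -1.13 ± 0.43 (adjusted p 0.207 and 0.185).

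FN1, fibronectin, which smooth muscle cells and macrophages deposit, read 7.35, 7.54, 6.60 and 7.69 in small arteries, 7.41, 7.47, 7.76, 7.14 and 7.09 in medium arteries and 7.54, 7.62 and 7.40 in large arteries. Small replicate 3 was lowest and the other 11 arteries lay between 7.09 and 7.76. Its differences from small were 0.23 ± 0.26 in large arteries (95% interval -0.33 to 0.79) and 0.08 ± 0.23 in medium arteries (-0.41 to 0.58), so a 2-fold difference lies outside both intervals.

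Tenascin-C, TNC, a protein of healing and remodelling tissue, read 2.77, 2.73, 3.90 and 4.74 in small arteries, 2.91, 2.42, 3.40, 2.66 and 3.19 in medium arteries and 3.97, 4.68 and 2.73 in large arteries. Its groups overlapped, with 0.26 ± 0.53 for large and -0.62 ± 0.46 for medium against small. TNXB, tenascin-X, had some of the narrowest intervals, at -0.24 ± 0.17 and -0.27 ± 0.15. THBS1, thrombospondin-1, which binds CD36 and activates latent TGF-beta, read 2.43, 2.27, -0.05 and 0.35 in small arteries, 0.95, 0.50, 1.38, 0.89 and 2.54 in medium arteries and 2.53, 2.10 and 0.94 in large arteries. On that probe small replicates 1 and 2 lay well above small replicates 3 and 4, and medium minus small was 0.00 ± 0.58. Its dimmest probe gave 1.34 ± 0.35 for medium (adjusted p 0.0631) and 1.19 ± 0.40 for large against small (adjusted p 0.172), while its middle probe gave 0.22 ± 0.20 and 0.01 ± 0.23. THBS2 gave -0.38 ± 0.21 for large and -0.27 ± 0.19 for medium against small on its brighter probe, and -0.58 ± 0.45 and 0.44 ± 0.39 on its dimmer one.

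A further 13 single-symbol probes covered 10 of the 33 genes. Of these 13, the sign matched the brightest probe in 10 for large against small, in 7 for medium against small and in 6 for large against medium. None of the 13 was called in any of the 5 tests.

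Plaque area was then used as a number. Over all 12 arteries the slopes of smallest p were SPARC at -0.93 ± 0.27 log2 units per mm2 (adjusted p 0.117), FBLN5 at -2.36 ± 0.71 (adjusted p 0.129), POSTN at 1.80 ± 0.57 (adjusted p 0.144) and LOXL2 at -0.91 ± 0.30 (adjusted p 0.162). At an unadjusted p under 0.05, 9 of 33 passed (27.3%, against 20.6% of all genes), 3 of them positive (9.09%, against 11.1%) and 6 negative (18.2%, against 9.48%). With the square root of area in place of area, FBLN5 passed, at -2.62 with an adjusted p of 0.0374. A slope over all arteries mixes the step between small and the other groups with any gradient beyond it.

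Within the 8 medium and large arteries, 2 of 33 had an unadjusted p under 0.05 (6.06%, against 5.27% of all genes), and none an adjusted one. ELN had a positive slope of 1.74 ± 0.62 log2 units per mm2 (95% interval 0.34 to 3.14; adjusted p 0.831), and its second probe 0.23 ± 0.73. Without large replicate 1, which has the largest plaque, the ELN slope was 1.11. LOXL2 had a negative slope of -1.28 ± 0.39 (-2.18 to -0.39; adjusted p 0.78). FBLN5, at -0.52, and LAMB1, at -0.45, had intervals that held 0, and POSTN gave 0.59.

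**Figure D4:**
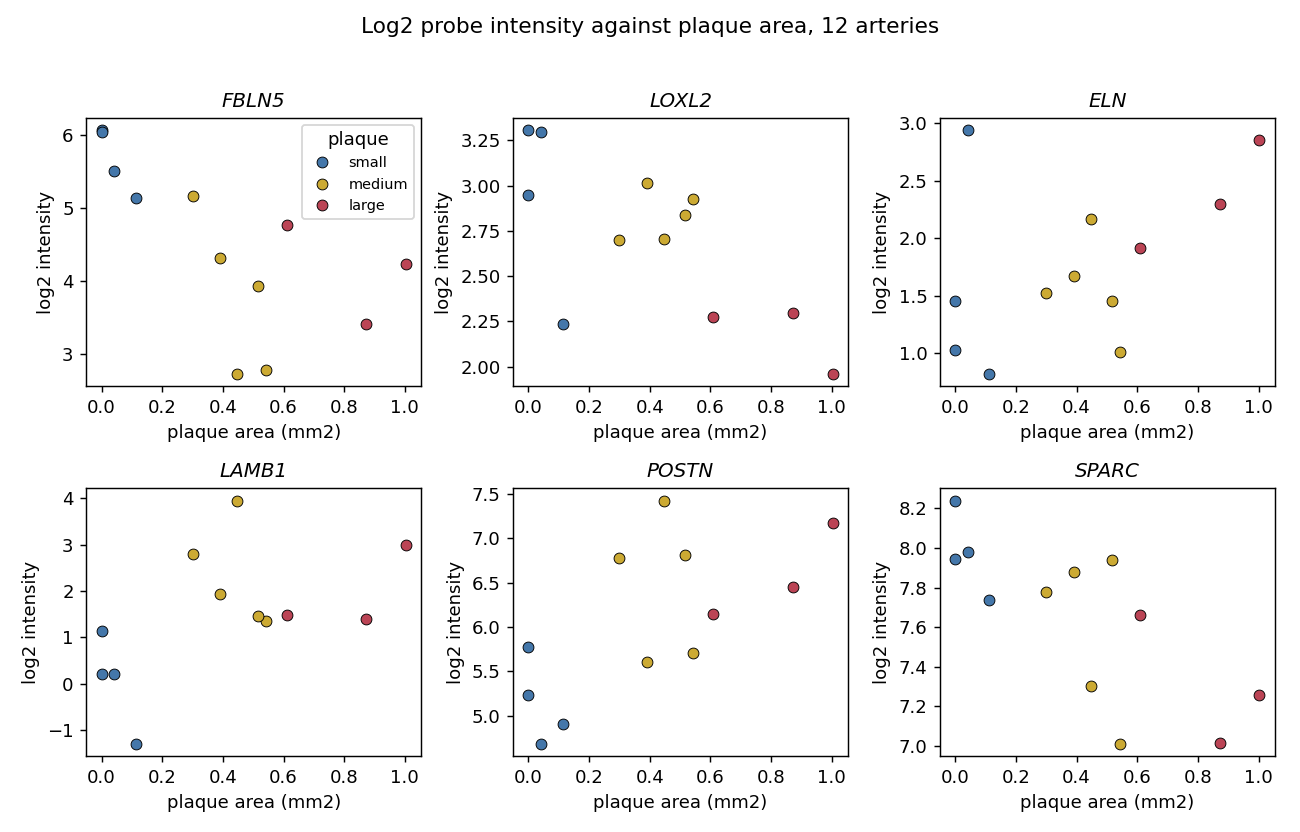
Log2 intensity of 6 genes against plaque area (mm2) in the 12 arteries, coloured by plaque group. FBLN5 has its 3 highest values in small arteries (5.51 to 6.06), ELN is high at the largest area (2.85) but also in small replicate 3 (2.94), and LOXL2 is lowest in the largest plaque (1.96).

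Related genes were looked at in lists of the same pathways. Over all probes, 3.14% were called in medium against small and 1.15% in large against small arteries. A single call in a short list is therefore not read as a result about the list. Of 16 further elastic fibre genes measured, 1 rose in medium against small arteries, EMILIN2, a second elastin interface protein, by 1.90 ± 0.36 (adjusted p 0.0169), and 0 in large against small, where it stood at 1.51 ± 0.41 (adjusted p 0.1). Small replicate 1, at 3.20, lay apart from the other small arteries, at 1.17 to 1.47. The EMILIN2 call was lost with the mean of its probes (0.60) and without small replicate 2 (1.69), and the SPP1 call below was lost without small replicate 4 (3.01). Of 15 further basement membrane genes, ITGA7, the laminin-binding integrin subunit of muscle, fell in medium against small arteries by 1.78 ± 0.33 on the log2 scale (adjusted p 0.0139), with values of 3.49 to 5.08 in medium and 5.56 to 6.56 in small arteries. The ITGA7 call was lost with the replicate number as a block (-1.77) and without small replicate 4 and medium replicate 5 (-1.83). In large arteries it read 4.68 to 5.30, a difference from small of -1.08 ± 0.37 (adjusted p 0.182). Of 15 further matricellular genes, SPP1, osteopontin, a secreted phosphoprotein that binds integrins and CD44, was the 1 that rose in medium against small arteries, by 3.27 ± 0.65 (adjusted p 0.0199), with small replicate 4 at the floor. In large against small arteries it stood at 1.72 ± 0.74 (adjusted p 0.28).

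Of 12 cell surface receptors for these proteins 1 rose in both comparisons against small, CD36, a receptor for thrombospondin-1 and oxidised lipoprotein, by 2.87 ± 0.51 in large arteries (adjusted p 0.0221) and 2.82 ± 0.45 in medium arteries (adjusted p 0.00678). It read 4.35 to 5.54 in large and 1.64 to 2.95 in small arteries. The call in large arteries was lost when small replicate 3 (2.72), small replicate 4 (2.66), large replicate 1 (2.67) or large replicate 3 (2.67) was left out. Of 8 measured enzymes able to cut elastin, 4 rose in large against small arteries, namely CTSS, CTSK, CTSL and MMP12, and 3 in medium against small, the same without MMP12. Among all probes 1.15% were called in large and 3.14% in medium against small arteries. CTSS, cathepsin S, rose by 4.69 ± 0.55 in large and 3.96 ± 0.48 in medium against small arteries, and CTSL, cathepsin L, by 1.93 ± 0.25 and 2.21 ± 0.22 in the same comparisons (limma adjusted p 0.00426 at most). With the mean of its probes CTSS stood at 2.74 and 2.24, still called. CTSK, cathepsin K, read 6.47 to 7.17 in small, 7.80 to 8.63 in medium and 8.15 to 8.78 in large arteries. It rose by 1.60 ± 0.27 in large (adjusted p 0.0174) and by 1.40 ± 0.24 in medium against small arteries (adjusted p 0.00987). MMP12, macrophage elastase, on a dim probe, rose by 1.93 ± 0.39 in large against small arteries (adjusted p 0.0402), a call that 10 of 23 alternatives lost, among them leaving out any 1 of the 3 large arteries (1.63 to 2.22). The CTSK call in large arteries was lost without large replicate 1 (1.40) or large replicate 3 (1.71). The medians of this list were 1.76 for large and 1.10 for medium against small. All genes at their brightest probe had -0.05 and -0.03, and the 33 matrix genes -0.19 and -0.29. The list was chosen with earlier results of these data known, so its medians are not a test.

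Most macrophage markers and the contractile smooth muscle markers moved with the plaque groups. The part of cell types in the differences above was not tested. Of 11 measured macrophage markers 7 rose in large and 8 in medium against small arteries, where 1.15% and 3.14% of all probes were called. Their summed linear intensity was 70.0 to 127 in small, 280 to 601 in medium and 304 to 459 in large arteries. CD68, the 1 of them with negative differences, averaged 5.66 in small, 5.22 in medium and 5.00 in large arteries. Of 8 contractile smooth muscle markers 1 fell in large and 2 in medium arteries, and their summed intensity was 2077 to 2953 in small, 853 to 1729 in medium and 1097 to 1936 in large arteries, with both plaque groups wholly below small. Summed endothelial markers lay at 163 to 230 in small, 74.2 to 122 in medium and 93.4 to 127 in large arteries, with 1 of 10 called lower in medium against small. That sum mostly follows its brightest probe, ESAM, which averaged 7.18 in small, 5.77 in medium and 6.13 in large arteries. CDH5 averaged 1.00, 0.89 and 0.91, and TEK 0.44, 0.68 and 0.86. Of the 10, 9 had a negative medium minus small difference and 1 a positive one, with a median of -0.20. The 8 markers of adventitial fibroblasts, none of them called, summed to 518 to 705 in small, 156 to 546 in medium and 281 to 603 in large arteries, lowest in medium replicate 4. They did not move together. DCN, the brightest, averaged 8.40 in small, 7.62 in medium and 7.88 in large arteries. LUM averaged 4.05, 5.74 and 6.22, and PDGFRA 0.58, 1.03 and 0.77. These 2 were higher than small in both comparisons and the other 6 lower. Platelets store THBS1 and SPARC, and the 7 platelet markers, none called, summed to 8.38 to 22.9 in small, 17.1 to 37.3 in medium and 12.5 to 20.1 in large arteries. Of 6 skeletal muscle markers 1 fell in medium against small arteries, and they summed to 21.6 to 55.8 in small, 9.09 to 27.5 in medium and 9.21 to 31.3 in large arteries. No marker of T cells (6 measured), adipocytes (6), Schwann cells (4) or red blood cells (3) was called, and no marker of any list was at the floor on all arrays.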

How the data were processed

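Total RNA of each artery was amplified to biotinylated cRNA, hybridised to 1 CodeLink human array with a single dye, per the submitters' labels and design text. The deposited table holds linear intensity values that the authors had scaled to an array median near 1, as the values show (background correction and scaling method: not given in the sources used here). Values below the 5th percentile of positive intensities (0.111) were set to it and log2 was taken. Of 54359 probes, 53877 were measured in 2 or more animals per group and tested with limma 3.58.1 (R 4.3.3), lmFit with 3 group means over 12 arrays and eBayes, and in separate fits with plaque area. P-values are two-sided, with Benjamini-Hochberg adjustment across every probe tested. The array count limits the precision. The fits were tested on simulated data.

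The members, the related gene lists and the marker lists were chosen with earlier results of these data known. Genes named with all values were the 2 of smallest moderated F p-value per role and 11 set genes (ELN, FBN1, FBLN5, LOX, LAMA4, HSPG2, FN1, TNC, THBS1, SPARC, POSTN); LTBP3 was added after its values were seen. From related lists, called genes are named. Alternatives covered normalization, floor, dim probes, probe choice, variance model, array weights, samples (each animal left out in turn), scale of area and a block on replicate number. The replicate numbers of the labels name animals and are not said to pair any. Whether arrays of the same number share anything is not given in the labels, and their correlations are given at the end.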

Additional observations from a re-analysis of the deposited data

Results flagged for a closer look

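In the groups of 4 and 5 arteries, 66 sets of values (33 genes in small and in medium arteries) were searched for an artery far from the rest of its group, and 2 were found, where chance gives about 1 in 20. SPARCL1 read 6.88 in small replicate 3, against 8.5 to 8.66 in the other 3 small arteries. FBLN2 read 2.90 in medium replicate 3, against 1.76 to 2.02 in the other 4 medium arteries. Neither gene passed the test in any comparison with or without these arteries (medium minus small, limma adjusted p 0.0518 for SPARCL1 without small replicate 3 and 0.0502 for FBLN2 without medium replicate 3).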

How the results depend on the processing

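The count of called genes was 0 of 33 in all 5 tests and stayed 0 under 22 of 23 alternatives for large against small, 21 of 23 for medium against small, 23 of 23 for large against medium, 22 of 23 for the slope over all arteries and 19 of 19 for the slope within medium and large arteries. It was 1, FBLN5, for medium against small with a trended and robust variance, and 1, FBLN5, for the slope on the square root of area. Leaving out 1 animal at a time gave 0 to 1 in large against small (LOXL2 without small replicate 1) and 0 to 2 in medium against small (FBLN5 and SPARCL1 without medium replicate 2), and 0 to 0 in the other tests. Without small replicate 4 and medium replicate 5 the count was 0 in each test, with 6, 9, 1, 6 and 2 genes at an unadjusted p under 0.05. No difference or slope with an unadjusted p under 0.05 changed sign under any alternative run. Under quantile normalization ELN and THBS1, near 0 in medium against small, changed sign. Of the related genes, ITGA7 lost its call under 2 of 23 alternatives (the replicate block, -1.77, and without small replicate 4 and medium replicate 5, -1.83), EMILIN2 and SPP1 under 4 each, and CD36 in large against small under 6; the block was among the losses for EMILIN2 (1.78), SPP1 (3.21) and CD36 (2.80). The cause was not tested.

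With the replicate number as a block, the count was 0 in each test. Arrays of the same number had correlations of their deviations from the group means of -0.16 to 0.22 in 10 pairs, 4 of them above 0.1 (median 0.08), and 3 of 37 pairs of different number were above 0.1 (median -0.02). Of 11 arrays 6 correlated best with an array of their own number, a hint from the data only. The labels tie no number to a shared animal or day and not every pair passed 0.1, so the fit without the block was kept. Further probes of some genes differed in sign from the brightest, and EMILIN1, LAMA5 and AGRN had arrays at the floor, which hides differences there.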
